A study of Mus musculus with 2 samples.

Results

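The genes examined were 9 cathepsins (Ctsa, Ctsb, Ctsc, Ctsd, Ctsh, Ctsk, Ctsl, Ctss and Ctsz) and Cst3, which encodes cystatin C. They were taken by symbol from a table of 46095 genes, and all 10 were found in it. RNA sequencing compared cultured macrophages of Tipe1-deleted and control C57BL/6 mice in a study titled for the role of TIPE1 in macrophage polarization. The KO library carries the genotype label TIPE1-/-, and the series' design text gives these mice as floxed for Tipe1 with LyzM-Cre, a Cre driven from the lysozyme 2 locus in myeloid cells. The WT library is labelled wild type, and the design text gives its mice as floxed for Tipe1 without the Cre. Both cultures were grown from femur and tibia marrow for 5 days in 100 ng/ml M-CSF, the growth factor that turns marrow progenitors into macrophages. Age and the number of mice per culture were not given in the sources used here. There was 1 library per genotype, so no difference below could be set against a spread between replicates, and no p-value was computed. Intervals in parentheses are 95% intervals that cover counting error only.

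Cathepsins are proteases that work mainly in the acid interior of endosomes and lysosomes, where macrophages break down what they have taken up. Most are cysteine proteases, cathepsin D is an aspartic protease and cathepsin A is a serine carboxypeptidase. They are made as inactive precursors, sorted to lysosomes largely by mannose 6-phosphate receptors, and activated there by removal of a propeptide. Cystatin C is a secreted inhibitor of cysteine cathepsins and does not act on cathepsin D or cathepsin A.

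The libraries held 11782664 (WT) and 15815956 (KO) counted reads, and counts were scaled to 1000000 effective reads per library (CPM). Tnfaip8l1, which encodes TIPE1, had 21 reads in WT and 3 in KO, 8.94-fold lower (2.67 to 46.8). Its mean of 0.967 CPM fell just short of the 1 CPM that a gene needed to be tested. Lyz2, the gene at the Cre locus, was 1.86-fold lower in the KO library. Of 17 macrophage markers 16 were tested, with a summed level of 19297 CPM in WT and 21157 CPM in KO. The receptor gene Csf1r stood at 2646 and 2414 CPM and the perforin-like gene Mpeg1 at 5196 and 5501 CPM, while Adgre1 was 2.40-fold higher in KO and Aif1 was listed at 0 in both. Of 16 tested fibroblast and stromal markers 15 were lower in KO, with a summed level of 2136 CPM in WT and 197 CPM in KO. Tagln, a smooth muscle marker on that list, was listed at 0 in both libraries.

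The 10 genes were close to level between the genotypes. Together they took 508188 reads in WT, 4.31% of all reads (4.30 to 4.32), and 674537 reads in KO, 4.26% (4.25 to 4.27). These shares use unscaled totals. With the scaling used here their summed level was 42075 CPM in WT and 43718.5 CPM in KO, a ratio of 1.04. The direction of this small difference thus depended on scaling. None of the 10 genes was at least 1.5-fold apart in either direction. Over the 12495 genes whose mean reached 1 CPM, 6.47% were at least 1.5-fold higher in KO and 7.23% at least 1.5-fold lower. A gene was counted there only if its interval also excluded a ratio of 1. With a looser threshold, a KO level at least 25% above or at least 20% below that of WT, 12.1% of tested genes were higher and 11.4% lower. Of the 10 genes 0 were higher and 1, Ctsk, was lower by that threshold. Their median log2 ratio of KO over WT, with 0.5 CPM added to both values, was 0.02, and that of all tested genes was 0.01. For a group of 10 genes these counts lie near the background shares and are not a result about the group.

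Because these transcripts were deeply sequenced, small differences exceeded counting error. The interval excluded 1 for 9 of the 10 genes, 5 above and 4 below, against 41.2% of all tested genes. Among the 2115 genes whose mean reached 100 CPM, which include all of the 10 but Ctsk, that share was 71.5%, and 22.0% passed the looser threshold in either direction. Of those 9 cathepsin and cystatin genes 8 had an interval that excluded 1 and 0 passed the looser threshold. How much such ratios vary between cultures of 1 genotype was not measured.

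**Figure D1:**
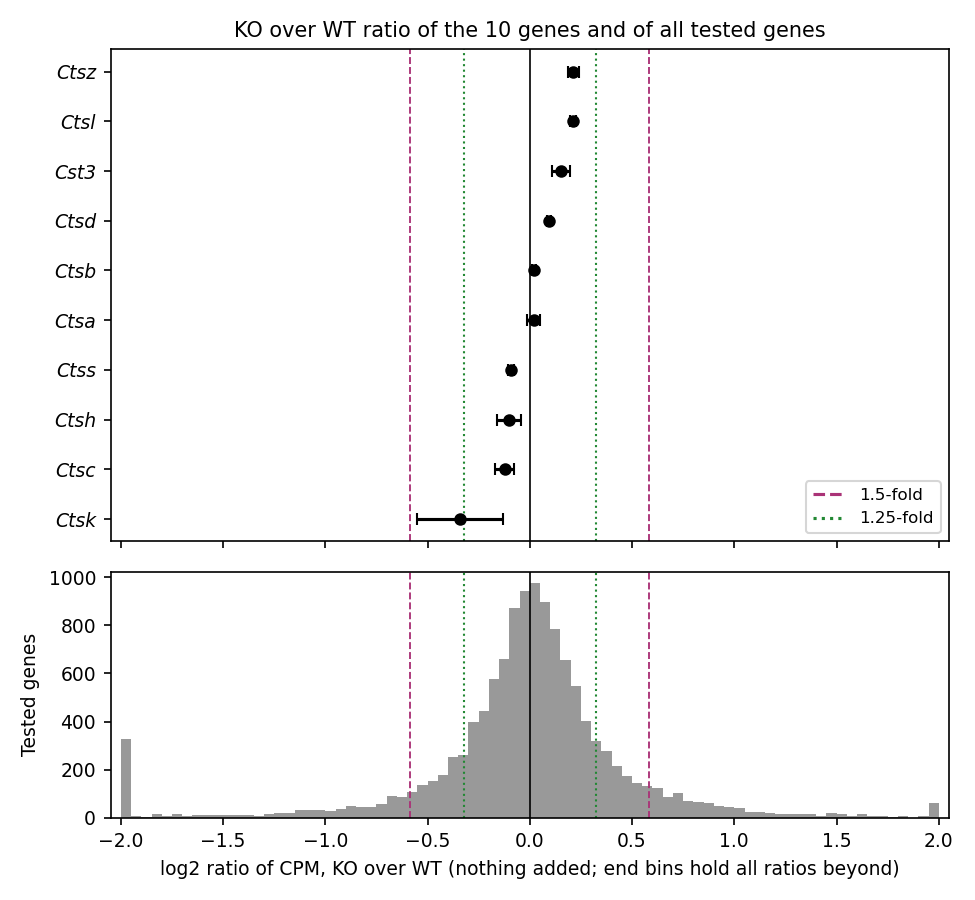
The upper panel plots the log2 ratio of CPM, KO over WT, of each of the 10 genes with its 95% counting interval, and the lower panel the same ratio for the 12495 tested genes, with all ratios beyond 4-fold in the end bins. The dashed lines mark 1.5-fold and the dotted lines the looser threshold (25% higher, 20% lower). Among the 10 points only that of Ctsk lies beyond a dotted line, and none lies beyond a dashed line.

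Ctsd, Ctss and Ctsb had the highest levels of the 10 in both libraries. Levels between genes were compared per length, as reads per kilobase of exon union per 1000000 scaled reads (RPKM). Ctsd, the aspartic protease of the lysosome (GRCm38 chromosome 7, 142375911 to 142388038, minus strand), stood highest at 5614 RPKM in WT and 5992 RPKM in KO. Ctss, a cysteine protease of antigen-presenting cells that stays active near neutral pH, followed at 4598 and 4309 RPKM. Ctsb, which acts both inside proteins and at their carboxyl end, came next at 2287 and 2320 RPKM. Then came Ctsz (1008 and 1169 RPKM), Ctsl (706 and 817 RPKM), Cst3 (426 and 473 RPKM), Ctsa (260 and 264 RPKM), Ctsc (106 and 96.8 RPKM), Ctsh (78.0 and 72.8 RPKM) and Ctsk (20.4 and 16.1 RPKM). The order of the 10 was the same in both libraries, and no neighbours in it had overlapping counting intervals. The steps between neighbours ran from 1.22-fold, Ctsd over Ctss in WT, to 4.52-fold, Ctsh over Ctsk in KO.

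The order depends on the length given to a gene at 2 places. The exon union of Ctsl is 6489 bases because 1 annotated isoform is long, whereas its longest transcript paired with a RefSeq mRNA is 1971 bases. With such transcripts as the length, a choice made after the values were seen, Ctsl stood at 2323 RPKM in WT and 2691 RPKM in KO, above Ctsz. Ctsh then stood at 217 and 203 RPKM, above Ctsc at 190 and 175 RPKM. The other ranks were as before.

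**Figure D2:**
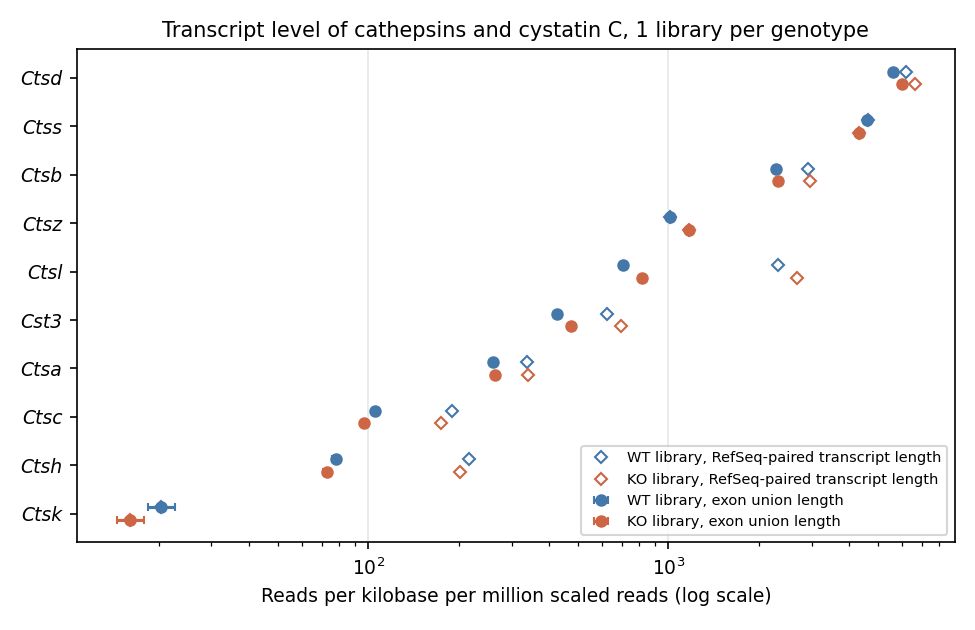
Level of each gene in the WT and KO libraries in reads per kilobase per 1000000 scaled reads on a log axis. Filled points use the exon union as the length and carry 95% counting intervals, and open diamonds use the longest transcript paired with a RefSeq mRNA. The span runs from 20.4 RPKM for Ctsk to 5614 RPKM for Ctsd in the WT library, and the open diamond of Ctsl lies far to the right of its filled point.

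The transcription factors TFEB and TFE3, which regulate lysosomal genes, bind an E-box element near the start of many of them. RefSeq sequence of the 250 bases before the gene start was at hand for 8 of the 10 genes (GRCm38.p6), with 2 start sites for Ctsa. The letters CACGTG, the core of that element and the same on both strands, were found for Ctsd, Ctsa and Ctsl, and in 6.02% of all 32851 start-site windows of that length. The longer TCACGTGA, which contains it, was found for Ctsa and Ctsd, and in 0.785% of windows. The letters GAAANNGAA, part of the element bound by interferon regulatory factors, were searched on both strands and found for Ctss, and in 7.13% of windows. The following stretches of 30 bases are shown because they hold these matches. They run 5′ to 3′ on the gene's strand, with the CACGTG or GAAANNGAA match in capitals. In the proximal Ctsd and the Ctsa stretches the longer TCACGTGA has its outer letters in lower case.
Ctsd, distal, chr7:142388048-142388077, minus strand: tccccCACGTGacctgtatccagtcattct
Ctsd, proximal, chr7:142387908-142387937, minus strand: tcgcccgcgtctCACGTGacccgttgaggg
Ctsa, downstream start site, chr2:164833743-164833772, plus strand: gaacaatgagcaaactgtCACGTGatgcag
Ctsl, chr13:64370739-64370768, minus strand: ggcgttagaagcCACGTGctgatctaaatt
Ctss, chr3:95526755-95526784, plus strand: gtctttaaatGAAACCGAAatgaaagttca
The proximal Ctsd, the Ctsa and the Ctsl stretches overlap an exon annotated in GENCODE M21. A match is a string of letters and does not show that a factor binds there. The 3 genes with CACGTG had ratios of KO over WT of 1.07 (Ctsd), 1.01 (Ctsa) and 1.16 (Ctsl). Ctss had a ratio of 0.937.

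Among the endopeptidases, Ctsl was somewhat higher in the KO library and Ctsb and Ctsd nearly level. Ctsl (chromosome 13, 64359337 to 64370890, minus strand) had 55296 reads in WT and 81825 in KO, 4578 and 5303 CPM. The KO library was therefore the higher one, by 1.16-fold (1.15 to 1.17). Ctsb (chromosome 14, 63122462 to 63145923, plus strand) had 167179 and 216555 reads, 13842 and 14035.5 CPM, a ratio of 1.01 (1.01 to 1.02). It took the fifth most reads of any gene in both libraries. Ctsd had 159410 and 217347 reads, 13198 and 14087 CPM, a ratio of 1.07 (1.06 to 1.07).

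Ctss and Ctsk, which lie 17423 bases apart on chromosome 3, both had their lower value in the KO library. Ctss (95526786 to 95556403, plus strand) had 75410 reads in WT and 90286 in KO, 6244 and 5852 CPM, 1.07-fold lower in KO (1.06 to 1.08). Ctsk (95499256 to 95509362, plus strand), the collagen-degrading enzyme of osteoclasts, had 373 and 376 reads, 30.9 and 24.4 CPM. That is 1.27-fold lower in KO (1.10 to 1.47), the largest difference of the 10 and the one that rests on the fewest reads.

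Ctsk is also made by fibroblasts, and the called markers of osteoclasts and of stromal cells lay on opposite sides. Of 7 tested osteoclast markers 4 were higher in KO and 0 lower, with a summed level of 627 CPM in WT and 1455 CPM in KO. Mmp9, a gelatinase, stood at 126 and 732 CPM and made up most of the difference in that sum, and the proton pump subunit gene Atp6v0d2 at 254 and 421 CPM. Tnfrsf11a, which encodes the receptor RANK, stood at 89.5 and 121 CPM. Nfatc1, the transcription factor gene of osteoclast formation, had its lower value in KO, at 96.7 and 78.2 CPM, a ratio of 0.809 (0.746 to 0.877). Acp5, the tartrate-resistant phosphatase gene and the usual partner of Ctsk as an osteoclast marker, was 1.95-fold higher (1.74 to 2.19). Dcstamp, also called higher, had 10 reads in WT and 64 in KO, 5.01-fold higher (2.56 to 10.9). Calcr, the calcitonin receptor gene, was listed at 0 in both libraries, and Ocstamp and Oscar had at most 1 read in each. The stromal genes Col1a1 (714 and 58.9 CPM) and Col1a2 (523 and 45.0 CPM) were 12.1-fold and 11.6-fold lower in KO, and Sparc (181 and 15.2 CPM) 11.9-fold lower. The part of either cell type in the value of Ctsk was not tested. In RNA of a whole culture, fewer cells of a type and less RNA per cell cannot be told apart.

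The enzymes that trim protein ends differed by less than 1.5-fold as well. Ctsz, a carboxypeptidase (chromosome 2, 174427493 to 174439039, minus strand), had 17548 reads in WT and 25985 in KO, 1453 and 1684 CPM. It was 1.16-fold higher in KO (1.14 to 1.18), as much as Ctsl. Ctsh, an aminopeptidase (chromosome 9, 90054152 to 90076089, plus strand), had 4240 and 5054 reads, 351 and 328 CPM, 1.07-fold lower in KO (1.03 to 1.12). Ctsc, the dipeptidyl peptidase that activates the serine proteases of neutrophil and lymphocyte granules (chromosome 7, 88278085 to 88310888, plus strand), had 7402 and 8678 reads, 613 and 562 CPM. It was 1.09-fold lower in KO (1.06 to 1.12).

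Granule proteases that cathepsin C activates were few in reads, and 2 of the 4 looked at were called lower in KO. Elane had 70 reads in WT and 18 in KO, 4.97-fold lower, and Prtn3 had 74 and 46 reads, 2.06-fold lower. Ctsg, which encodes cathepsin G, had 25 and 18 reads with an interval that held 1 (ratio 0.290 to 1.08), and Gzmb, a lymphocyte granzyme gene, had 83 and 117 reads, a ratio of 1.10 (0.826 to 1.48). Of 13 tested neutrophil markers 5 were lower and 0 higher, and their summed level was 1024 CPM in WT and 773 CPM in KO. The abundant ones were Csf3r (245 and 216 CPM), S100a9 (266 and 194 CPM) and Ngp (196 and 149 CPM).

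Ctsa (chromosome 2, 164832873 to 164841032, plus strand) was the gene nearest to level with an interval that held 1. It had 14823 reads in WT and 19189 in KO, 1227 and 1244 CPM, a ratio of 1.01 (0.992 to 1.04). Cathepsin A protects the lysosomal enzymes beta-galactosidase (Glb1) and neuraminidase 1 (Neu1) in a complex. Glb1 had 374 reads in WT and 1052 in KO, 31.0 and 68.2 CPM, 2.20-fold higher in KO (1.95 to 2.48). Neu1 had 95 and 101 reads, 7.87 and 6.55 CPM, a ratio of 0.832 (0.623 to 1.11). Of these 3 genes only Glb1 was called.

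Cst3 (chromosome 2, 148871722 to 148875692, minus strand) had 6507 reads in WT and 9242 in KO, 539 and 599 CPM. It was 1.11-fold higher in KO (1.08 to 1.15). Cstb, which encodes stefin B, the cytosolic inhibitor of cysteine cathepsins, had 4236 and 6598 reads and was 1.22-fold higher in KO (1.17 to 1.27). Neither reached 1.5-fold.

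Ratios between genes inside a library do not depend on how the libraries were scaled. The following pairs were chosen after the values were seen. For each read of Ctsb there were 0.331 reads of Ctsl in WT and 0.378 in KO, 1.14-fold more in KO (1.13 to 1.16). Ctsz per Ctsb went from 0.105 to 0.120 in the same direction, 1.14-fold more (1.12 to 1.17). Ctss per Ctsl was 1.36 in WT and 1.10 in KO, a change of 0.809 (0.797 to 0.821), so that the balance of these cysteine proteases lay more toward Ctsl in the KO library. Ctsk per Ctss changed by 0.842 (0.729 to 0.972). The reads of the 7 cysteine cathepsins per read of Cst3 were 50.3 in WT and 46.4 in KO, a change of 0.922 (0.893 to 0.952). With Cstb added to Cst3 they were 30.5 and 27.1, a change of 0.888 (0.866 to 0.910). These ratios count RNA reads and are not ratios of enzyme to inhibitor.

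As a share of the reads of all 10 genes, Ctsb led in WT with 32.9% (32.8 to 33.0), followed by Ctsd with 31.4% (31.2 to 31.5). In KO they had 32.1% and 32.2%, and the intervals of the pair overlapped there. Ctss went from 14.8% in WT to 13.4% in KO and Ctsl from 10.9% to 12.1%. The other 6 genes each held under 4% of these reads in both libraries, from Ctsz (3.45% and 3.85%) down to Ctsk (0.0734% and 0.0557%).

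**Figure D3:**
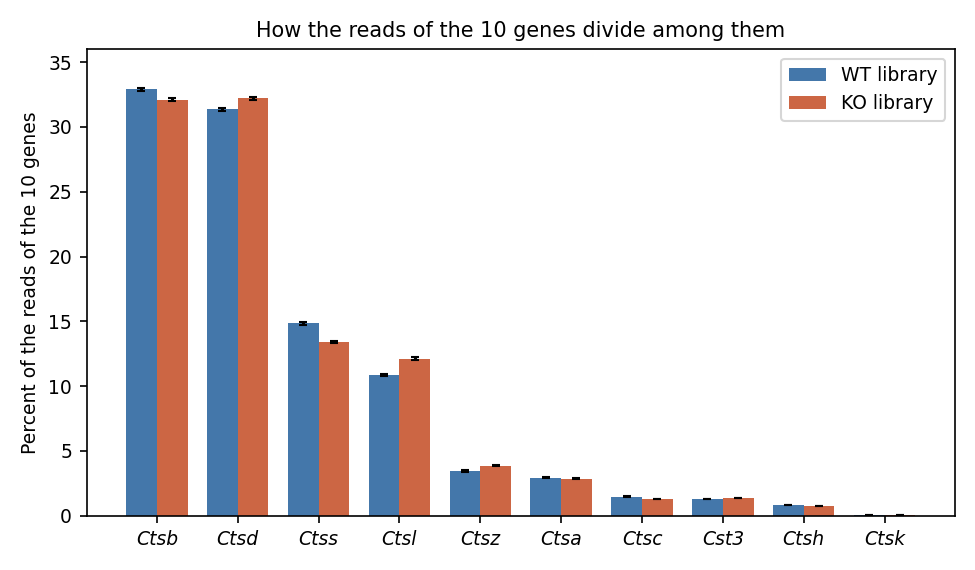
Percent of the reads of the 10 genes that fell on each gene in the WT and KO libraries, with exact 95% binomial intervals as error bars. Ctsb and Ctsd together hold most of the reads in both libraries, the Ctss bar is lower in KO (13.4% against 14.8%) and the Ctsl bar is higher (12.1% against 10.9%).

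The medians of the lists for processing, sorting and regulating cathepsins also lay near level. Of 15 processing and partner enzymes 1 was at least 1.5-fold higher in KO, Glb1, and 0 were lower, with a median log2 ratio of 0.00. With the looser threshold 2 were higher, Glb1 and Cpq (ratio 1.26), and 1 was lower, Ppt1 (ratio 0.726, 0.687 to 0.768). Lgmn, the asparaginyl endopeptidase that cleaves several cathepsins to their mature chains, stood at 2762 CPM in WT and 2467 CPM in KO, 1.12-fold lower in KO (1.10 to 1.14). Psap, the saposin precursor, stood at 12541 and 13228 CPM, Grn, the progranulin gene, at 2059 and 2035 CPM and Hexa at 935 and 952 CPM.

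Of 15 sorting genes none was called in either direction, and the median was 0.01. With the looser threshold 1 was lower, Scarb2 (ratio 0.746, 0.711 to 0.782), and 0 were higher. The mannose 6-phosphate receptor genes M6pr (365 and 420 CPM) and Igf2r (324 and 329 CPM) had ratios of 1.15 and 1.02. Lrp1 stood at 1418 and 1505 CPM and the retromer gene Vps35 at 273 and 287 CPM. Of 15 lysosomal regulators and membrane proteins none was called either, with a median of -0.01. Lamp1 stood at 2813 and 2685 CPM, Lamp2 at 717 and 739 CPM, Fnip2 at 695 and 648 CPM and Slc11a1, a metal transporter of the phagosome, at 546 and 656 CPM. The regulators themselves had ratios of 1.06 (Tfeb), 1.14 (Tfe3), 1.10 (Mitf) and 1.04 (Tfec).

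The scarcer cathepsins went in both directions. Of 15 other cathepsin genes 9 were listed at 0 in both libraries, the 8 genes Cts3, Cts6, Cts7, Cts8, Ctsj, Ctsm, Ctsq and Ctsr, which are known from the placenta, and Ctsll3. For a gene whose reads could be counted, 0 reads allow up to 0.248 CPM in WT and 0.194 CPM in KO. Since Aif1, which macrophages are known to express, was listed at 0 as well, a listed 0 is not read here as absence, and whether such zeros come from the counting was not tested. Of the 6 tested, Napsa, an aspartic protease, was 1.5-fold higher in KO (1.22 to 1.85) at 12.1 and 18.1 CPM. Ctse, an aspartic protease of endosomes, had 63 and 39 reads, 2.06-fold lower (1.36 to 3.16), and Ctsf had 89 and 74 reads, 1.54-fold lower (1.12 to 2.12). Ctso stood at 57.5 and 69.4 CPM, a ratio of 1.21 (1.10 to 1.33).

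Of 8 tested genes among the other cystatins and cathepsin inhibitors 4 were lower in KO and 0 higher, with a median log2 ratio of -0.35. That median was -0.05 with no filter on low values and 0.15 among genes whose mean reached 10 CPM, so its direction depended on the scarce genes. The 4 were Ctla2b (28.2 and 14.2 CPM, 1.99-fold lower), Ctla2a, Serpinb1a and Stfa2l1. Ctla2a and Ctla2b are close copies, as are the stefin A genes, so reads may be divided wrongly among them. The abundant Serpinb6a was level at 364 and 366 CPM, and Serpinb9 stood at 18.0 and 25.3 CPM.

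Cd74, a cathepsin substrate, and some other genes of class II antigen processing were lower in KO by 1.5-fold or more. Cd74, the invariant chain that cathepsin S cleaves on the way to class II antigen loading, had 7712 reads in WT and 4227 in KO, 2.33-fold lower in KO (2.24 to 2.42). Per read of Ctss there were 0.102 reads of Cd74 in WT and 0.0468 in KO. Of 7 tested class II genes 4 were lower and 0 higher, with a median log2 ratio of -0.94. The median was -0.66 with 2 CPM added in place of 0.5, -0.46 with no filter and -0.36 among genes whose mean reached 10 CPM. That last value rests on Cd74 (log2 ratio -1.22) and Ifi30 (0.50) alone, which lay on opposite sides. The 4 included the transactivator gene Ciita (8.94 and 4.41 CPM) and H2-Ab1 (5.13 and 2.40 CPM), while Ifi30, the thiol reductase of the same compartment, stood at 115 and 163 CPM. Of 6 tested B cell markers, another source of class II RNA, 5 were lower in KO. Their reads were few, such as 49 and 19 for Cd79b and 40 and 10 for Cd79a, and Blnk stood at 114 and 128 CPM. The dendritic cell markers were mixed, with 2 of 4 higher (Itgax, Bst2) and 2 lower (Tcf4, Ccr7). The part of these cells in the class II values was not tested.

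Of 9 tested matrix genes whose products secreted cathepsins can cleave, 8 were lower in KO and 0 higher, with a median log2 ratio of -2.53. Fn1, which encodes fibronectin, stood at 471 and 133 CPM, and Lamc1, a laminin chain, at 108 and 73.5 CPM. Col1a1 and Col1a2 are on this list and on the stromal list, of whose 16 tested genes 15 were lower. The part of stromal cells in the values of the matrix genes was not tested. Fn1 is also on the monocyte list, of whose 11 genes 5 were lower and 0 higher, with a summed level of 1372 CPM in WT and 719 CPM in KO. F13a1 on that list stood at 413 and 139 CPM and Itga4 at 108 and 158 CPM. Of 6 tested T and NK cell genes 2 were higher, Cd4 (17.6 and 27.6 CPM) and Cd8a (23 and 51 reads).

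**Figure D4:**
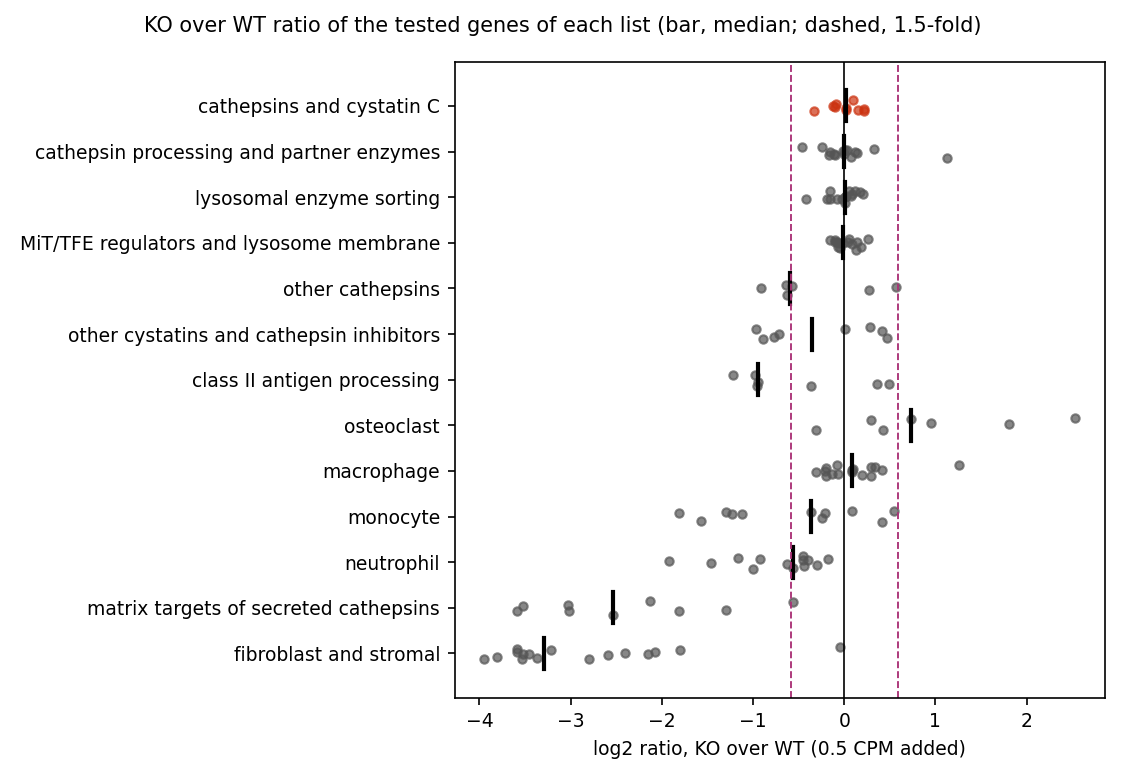
Log2 ratio of KO over WT, with 0.5 CPM added, of each tested gene by list. The dendritic cell, B cell and T and NK cell lists are not shown. Points are genes, bars are list medians and dashed lines mark 1.5-fold. The 10 cathepsin and cystatin genes and the sorting and regulator lists lie between the dashed lines, whereas most stromal genes lie far to the left (median -3.30).

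The side on which a gene lay depended on scaling for 2 of the 10. Under 6 other scalings the ratio of Ctsb ran from 0.955 to 1.02 and that of Ctsa from 0.955 to 1.02. Ctsl (1.09 to 1.17), Ctsz (1.09 to 1.17), Cst3 (1.05 to 1.12) and Ctsd (1.01 to 1.07) stayed above 1. Ctss (0.883 to 0.943), Ctsh (0.879 to 0.939), Ctsc (0.865 to 0.923) and Ctsk (0.743 to 0.794) stayed below 1. The median of the 10 was -0.05 with total counts and -0.07 when the macrophage markers were set to a median ratio of 1. In that last scaling 615 tested genes were at least 1.5-fold higher and 1082 lower, against 808 and 904 with the scaling used here.

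Some reads of these genes cannot be assigned with certainty, since the strand setting of the counting was not given in the sources used here. In GENCODE M21, exons of Ctsa share 495 bases with exons of Pltp and 324 with exons of Neurl2 on the opposite strand. Pltp had 5686 reads in WT and 6178 in KO, a ratio of 0.851. Exons of Ctsb share 774 bases with Fdft1 on the opposite strand, which had 261 and 476 reads, far fewer than Ctsb. Exons of Ctsl share 1742 bases with Gm47123 on the opposite strand and 395 with Gm49230 on the same strand, and exons of Ctsd share 808 bases with Gm49369 on the same strand. No row of the table used here carries these 3 symbols, and same-strand overlaps leave reads uncertain under any strand setting.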

How the data were processed

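RNA of macrophage cultures was sequenced, with 1 library for each of 2 genotypes. The deposited table holds raw read counts per gene symbol, with no normalization, per the file headers. The submitters' processing notes list HISAT2 and GRCm38, with no version. The counter, its annotation and its strand setting were not given in the sources used here. Every row carried a gene name.

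Counts were divided by TMM-scaled effective library sizes (edgeR 4.0.16, R 4.3.3). A count of 3 corresponds to 0.248 CPM in WT and 0.194 CPM in KO. Log2 ratios had 0.5 CPM added. Ratios of CPM carry exact Clopper-Pearson intervals of the split of reads (scipy 1.17.1), levels exact Poisson intervals, and pairs of genes intervals from the normal approximation to log ratios of counts. Because reads lacked molecular identifiers they need not stand for independent molecules, and intervals cover counting error only. Genes whose mean over both libraries reached 1 CPM were tested. A gene was called when its ratio was at least 1.5-fold and its interval excluded 1. The calculation was tested on simulated counts with known fold changes. These counts were drawn with counting error only, which the intervals also assume, so the test does not bear on variation between cultures. Lengths and positions came from GENCODE M21 (GRCm38), and start-site sequence from RefSeq (GRCm38.p6).

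The 10 genes and 15 other lists (7 pathway, 8 cell type) were chosen with earlier results of these data known. Genes named are the 10, Tnfaip8l1 and Lyz2, the 4 most abundant tested genes of each pathway list and the 3 of each cell type list. Acp5, Nfatc1, Calcr, Ocstamp, Oscar, Aif1, Tagln, Elane, Prtn3, Ctsg, Glb1, Neu1, Ctla2a, Serpinb1a, Stfa2l1, Ccr7, the TFEB family, the cathepsins listed at 0 and genes that overlap the 10 were named after their values were seen. So were Dcstamp, Cpq, Ppt1 and Scarb2. With 2 libraries, likeness of patterns between genes was not computed.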

Additional observations from a re-analysis of the deposited data

How the results depend on the processing

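No paired analysis was possible because WT and KO had 1 library apiece, and for the same reason no replicate could be left out. Under 6 other scalings none of the 10 genes was at least 1.5-fold apart, nor was any at 2-fold or with the interval bound required at 1.5-fold. The last 2 settings are stricter than the main call, which none of the 10 passed, so for these genes their outcome was fixed. With the looser threshold (25% higher or 20% lower) 1 of the 10, Ctsk, was lower. Of 60 ratios recomputed for the 10 genes under these scalings, 29 lay outside the narrow counting interval of the main value, and 2 genes, Ctsa and Ctsb, crossed 1. The counts over all genes, 808 higher and 904 lower in KO, were 412 and 223 with a mean of at least 10 CPM. They were 136 and 37 with a mean of at least 100 CPM, a filter added after the data were seen, since fewer genes enter. They were 323 and 597 at 2-fold, 357 and 509 with the interval bound required at 1.5-fold, and 1514 and 1427 with the looser threshold. The share of reads in the 10 genes was 4.39% in WT and 4.33% in KO when mitochondrially encoded genes were left out. Of 150 medians recomputed for the other lists 25 moved by over 0.1 on the log2 scale. Among genes whose mean reached 10 CPM, 4 lists had medians that moved by more than this and changed from below to above 0. They went to 0.15 (other cystatins and inhibitors), 0.42 (other cathepsins, from -0.60), 0.17 (B cell, from -1.81) and 0.67 (dendritic cell, from -0.09). The dendritic cell median also did so with no filter (0.09). Few genes of these lists reached 10 CPM, so the new medians describe those genes and not the lists. They were Blnk alone (B cell), Ctso and Napsa (other cathepsins), and Itgax, Bst2 and Tcf4 (dendritic cell). For the other cystatins and inhibitors they were Cstb, Serpinb6a, Serpinb9 and Ctla2b. The other changes of sign were in medians within 0.1 of 0 under both settings. Of 40 levels per length recomputed with other transcript lengths 28 left their counting interval. Depth limits Ctsk, with 373 and 376 reads, more than the other 9 genes.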
